A study of Mus musculus with 12 samples.

Results

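The genes described here make, load and regulate MHC class II, the surface complex that shows peptides to CD4+ T cells. They are 10 genes picked by symbol from the table of 39017 genes: the chains H2-Aa, H2-Ab1 and H2-Eb1, the invariant chain Cd74, the transactivator Ciita, the peptide exchange genes H2-DMa, H2-DMb1 and H2-DMb2, and the H2-O genes H2-Oa and H2-Ob. The choice was made with earlier results of these data known. All 10 passed the filter on low counts, which left 16024 genes tested. Expression was measured by RNA sequencing of LSK cells (Lin- Sca1+ cKit+), a gate on bone marrow that takes in stem cells and early progenitors of the blood, in 12 libraries of 4 labelled groups with 3 libraries each. Libraries labelled NICD_TCFKO came from R26 N1IC lox/+ Tcf7 lox/lox Mx1Cre mice, those labelled NICD_TCFWT from R26 N1IC lox/+ Mx1Cre mice, those labelled NOTCHWT_TCFKO from Tcf7 lox/lox Mx1Cre mice, and those labelled NOTCHWT_TCFWT from mice with a wild-type transgene label. N1IC is the intracellular, constitutively active form of Notch1, and Tcf7 encodes the transcription factor TCF1. The mice of all 4 groups were C57BL/6J; Sv/129 and received poly(I:C) at 2 ug/g. Poly(I:C) is a double-stranded RNA mimic that induces interferon, and Mx1Cre is driven by the interferon-inducible Mx1 promoter, so recombination is not restricted to blood cells. The NICD_TCFKO and NICD_TCFWT samples were also gated as CD45.2+ eGFP+, so that this gate and labelled N1IC cannot be told apart. The labels do not say whether replicates were separate mice, and the p-values then measure only the spread between these samples, which may be technical.

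In antigen-presenting cells the class II chains pair in the endoplasmic reticulum with the invariant chain, which blocks the groove and directs the complex to endosomes. There proteases trim the invariant chain, H2-DM exchanges the remaining fragment for antigenic peptide, and H2-O restrains H2-DM. Ciita binds no DNA itself: it docks on RFX, CREB and NF-Y bound to the X and Y boxes of class II promoters, and its own transcription is driven by cell-type promoters and by interferon gamma through IRF1 among other factors. Class II is best known from dendritic cells, B cells and macrophages, and mouse haematopoietic progenitors can carry it too.

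The libraries held 30453271 to 43790674 counts each. Levels are given as CPM, counts scaled to a common library size after TMM. The genes behind the labels went partly against them. Tcf7 had 297, 896 and 615 CPM in libraries labelled NICD_TCFKO, 5.05, 4.68 and 6.76 CPM in those labelled NICD_TCFWT, 0.819, 2.76 and 0.267 CPM in those labelled NOTCHWT_TCFKO, and 14.3, 10.5 and 19.6 CPM in those labelled NOTCHWT_TCFWT. Tcf7 was therefore highest in a group labelled as its knockout. Notch1 averaged 774 ± 160 CPM in NICD_TCFKO, 180 ± 19.9 CPM in NICD_TCFWT, 149 ± 46.7 CPM in NOTCHWT_TCFKO and 571 ± 44.4 CPM in NOTCHWT_TCFWT libraries (SD, n = 3 each). The summed level of 7 Notch target genes ran from 436 to 484 CPM in NICD_TCFKO, from 10.6 to 19.5 CPM in NICD_TCFWT, from 9.41 to 18.9 CPM in NOTCHWT_TCFKO and from 449 to 585 CPM in NOTCHWT_TCFWT libraries. All group names below are therefore the labels, and every direction is between libraries labelled in that way. The gate's own genes were present: Kit ranged from 609.7 to 978 CPM and Ly6a, which encodes Sca1, from 33.1 to 148 CPM over the 12 libraries. Ly6a differed between groups. It fell in NOTCHWT_TCFKO against NOTCHWT_TCFWT libraries and rose in NICD_TCFKO against NOTCHWT_TCFKO libraries (edgeR adjusted p under 0.05).

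Class II promoters share an X box and a Y box, and both can be read in the members' own sequence. The windows printed here are shown because these genes differ in how they varied across the groups: H2-Aa and H2-Eb1 varied widely, H2-Ob varied little and H2-DMb2 lay between. Each holds 86 bases on the gene's strand with no annotated exonic base, and that of H2-DMb2 lies inside the annotated gene, before the start of its shorter transcripts. They are from RefSeq's promoter table for GRCm38.p6 and have the Y box core GATTGG in capitals. GNAAC, the start of the X box, is in capitals where it lies 20 to 30 bases before GATTGG.
H2-Aa, chr17:34287847-34287932, minus strand: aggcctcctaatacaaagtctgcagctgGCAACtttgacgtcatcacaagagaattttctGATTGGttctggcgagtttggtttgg
H2-Eb1, chr17:34305747-34305832, plus strand: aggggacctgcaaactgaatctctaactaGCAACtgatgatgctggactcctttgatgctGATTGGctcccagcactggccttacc
H2-Ob, chr17:34238787-34238872, plus strand: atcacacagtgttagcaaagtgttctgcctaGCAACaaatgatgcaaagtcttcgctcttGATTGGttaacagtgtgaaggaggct
H2-DMb2, chr17:34145098-34145183, plus strand: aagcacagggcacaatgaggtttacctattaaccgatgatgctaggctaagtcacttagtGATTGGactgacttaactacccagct

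The motifs were chosen after these promoters had been read. The table had entries for 7 of the 10 members: H2-Aa, H2-Eb1, H2-DMa, H2-DMb1, H2-DMb2, H2-Oa and H2-Ob. GATTGG on either strand was found in an entry of each of the 7, against 16.1% of 32851 mouse promoters of 300 bases (250 before and 50 after the start site). GNAAC followed after 20 to 30 bases by GATTGG on the same strand was found in 5 of the 7 (H2-Aa, H2-Eb1, H2-DMb1, H2-Oa and H2-Ob), against 0.651% of all promoters, a search in which the GATTGG of the first motif is contained. TGACGTCA, the full palindrome of the CREB site, was found in H2-Aa alone of the 7 and in 1.79% of all promoters. H2-Ob and H2-Oa thus hold the same pair of motifs as H2-Aa and H2-Eb1, and a match describes letters only.

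In GENCODE M21 (mm10) 8 members lie on chromosome 17, from H2-Oa at 34092340 to 34095234 to H2-Eb1 at 34305867 to 34316674, with H2-Aa at 34282744 to 34287823 and H2-Ab1 at 34257689 to 34269419. Cd74 lies on chromosome 18 at 60803848 to 60812652 and Ciita on chromosome 16 at 10480059 to 10528418. Whether reads were counted by strand is not given in the sources used here, so exonic bases shared with a gene on the other strand leave a count uncertain: 360 bases of H2-DMa with Brd2, 329 of Ciita with Dexi and 321 of H2-Oa with the antisense gene BC051537. The longest transcripts of H2-DMb1 and H2-DMb2 were 94.3% identical over 1211 aligned bases, and 254 of 1409 windows of 75 bases, the read length, were identical in both, so how reads were split between this pair is uncertain.

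The levels of the chain genes separated the groups into a high and a low pair. H2-Aa, the class II alpha chain of I-A, had 66.0, 221 and 136 CPM in NICD_TCFKO, 23.6, 17.3 and 29.8 CPM in NICD_TCFWT, 37.4, 36.3 and 58.6 CPM in NOTCHWT_TCFKO, and 222, 94.0 and 269 CPM in NOTCHWT_TCFWT libraries. H2-Ab1, its beta chain partner, had 71.9, 185 and 109 CPM in NICD_TCFKO, 39.7, 38.8 and 38.9 CPM in NICD_TCFWT, 43.6, 39.8 and 61.3 CPM in NOTCHWT_TCFKO, and 185, 90.1 and 214 CPM in NOTCHWT_TCFWT libraries. For both genes the lowest NICD_TCFKO and the lowest NOTCHWT_TCFWT library lay above the highest library of the other 2 groups. H2-Eb1, the I-E beta chain, had 41.4, 133 and 83.2 CPM in NICD_TCFKO, 16.1, 12 and 18.7 CPM in NICD_TCFWT, 19.8, 18.3 and 31.3 CPM in NOTCHWT_TCFKO, and 150, 49.8 and 179 CPM in NOTCHWT_TCFWT libraries, with the same split. Its alpha chain partner, listed as the pseudogene H2-Ea-ps, had no count outside 1 NOTCHWT_TCFWT library, where it stood at 0.0233 CPM; both strains of this background are known for a defective I-E alpha gene.

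Cd74 and Ciita varied as widely as the chains. Cd74, the invariant chain, had 83.9, 415 and 236 CPM in NICD_TCFKO, 28.4, 15.4 and 37.3 CPM in NICD_TCFWT, 68.8, 82.3 and 94.2 CPM in NOTCHWT_TCFKO, and 342, 134 and 351 CPM in NOTCHWT_TCFWT libraries. Here NICD_TCFKO replicate 1 fell inside the range of the NOTCHWT_TCFKO libraries, and the 3 NOTCHWT_TCFKO libraries stood clear above the 3 NICD_TCFWT libraries. Ciita, the transactivator, had 12.2, 51.3 and 28.8 CPM in NICD_TCFKO, 3.83, 3.39 and 4.87 CPM in NICD_TCFWT, 4.44, 4.62 and 8.07 CPM in NOTCHWT_TCFKO, and 30.1, 11.6 and 43.8 CPM in NOTCHWT_TCFWT libraries. The 2 high groups did not overlap with the 2 low groups for Ciita, and the low groups overlapped with each other.

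**Figure D1:**
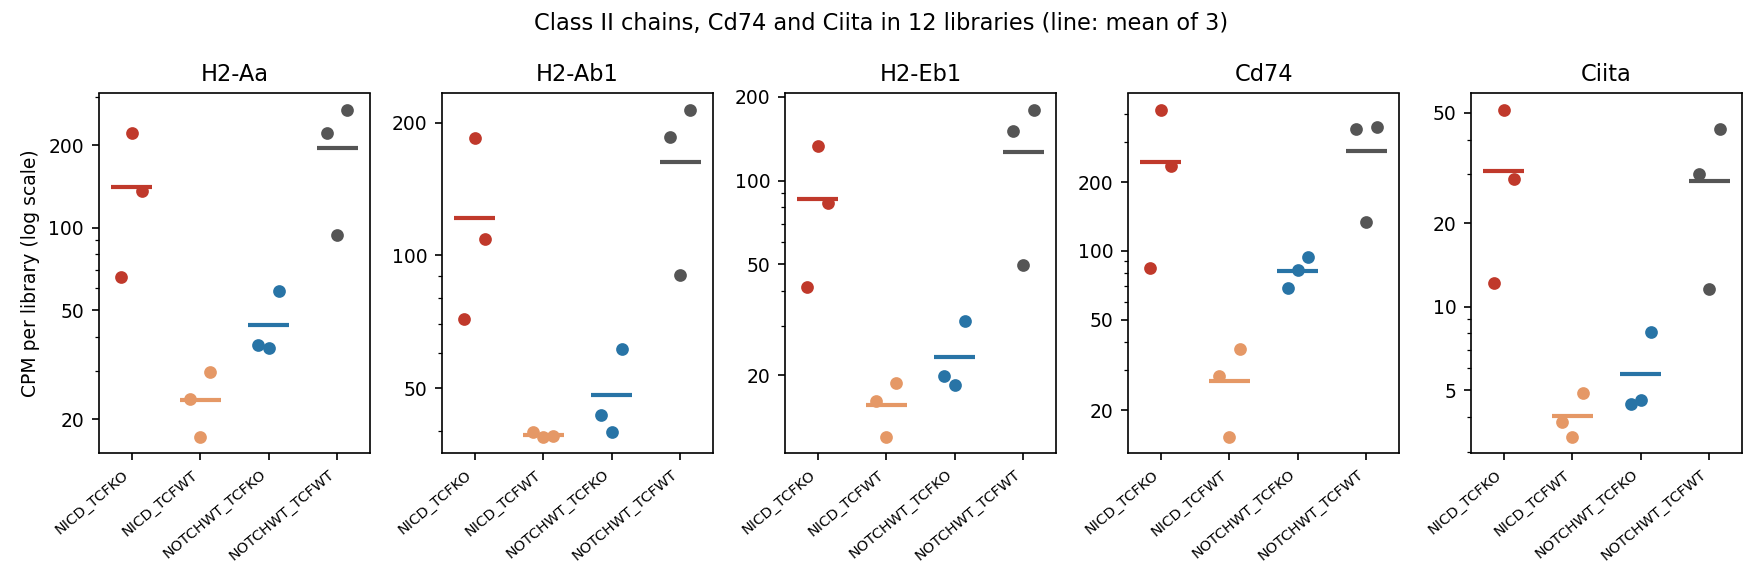
CPM per library (log axis) of H2-Aa, H2-Ab1, H2-Eb1, Cd74 and Ciita in the 4 labelled groups; points are libraries and lines are means of 3. H2-Aa averages 141 CPM in NICD_TCFKO, 23.6 CPM in NICD_TCFWT, 44.1 CPM in NOTCHWT_TCFKO and 195 CPM in NOTCHWT_TCFWT libraries, and the other 4 genes show the same high and low groups, with Cd74 of 1 NICD_TCFKO library among the NOTCHWT_TCFKO libraries.

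Within the 2 high groups the same libraries were lowest for all 5 of these genes. NICD_TCFKO replicate 1 was the lowest and replicate 2 the highest of its group for H2-Aa, H2-Ab1, H2-Eb1, Cd74 and Ciita, with ratios of highest to lowest library between 2.57 for H2-Ab1 and 4.95 for Cd74. NOTCHWT_TCFWT replicate 2, the library with the fewest counts, was the lowest of its group for the same 5 genes, with ratios from 2.37 for H2-Ab1 to 3.78 for Ciita. For each of these genes the ratio was smaller in the low groups. It ran from 1.02 for H2-Ab1 to 2.43 for Cd74 in NICD_TCFWT libraries. In NOTCHWT_TCFKO libraries it ran from 1.37 for Cd74 to 1.82 for Ciita. Per kilobase of exon, Cd74 was the most abundant member in 3 groups, at 146 ± 98.9 CPM per kb in NICD_TCFKO, 48.7 ± 7.59 in NOTCHWT_TCFKO and 164 ± 73.2 in NOTCHWT_TCFWT libraries (SD, n = 3 each). In NICD_TCFWT libraries H2-DMa was the most abundant, at 35.5 ± 1.77 CPM per kb against 16.1 ± 6.57 for Cd74. Ciita was the least abundant member per kilobase in all 4 groups, at 3.22 ± 2.06, 0.423 ± 0.0796, 0.599 ± 0.215 and 2.99 ± 1.70 CPM per kb in NICD_TCFKO, NICD_TCFWT, NOTCHWT_TCFKO and NOTCHWT_TCFWT libraries.

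The loading genes varied far less. H2-DMa, the alpha chain of the exchange factor, had 102, 81.9 and 79.7 CPM in NICD_TCFKO, 117, 129 and 121 CPM in NICD_TCFWT, 87.2, 94.2 and 116 CPM in NOTCHWT_TCFKO, and 114, 103 and 113 CPM in NOTCHWT_TCFWT libraries. Its highest library exceeded its lowest 1.62-fold, against 15.6-fold for H2-Aa and 27.1-fold for Cd74, and its highest values lay in the NICD_TCFWT group, where the chains were lowest. H2-DMb1, one of the beta chains of that factor, averaged 26.3 ± 2.51 CPM in NICD_TCFKO, 24.2 ± 1.72 CPM in NICD_TCFWT, 24.1 ± 2.73 CPM in NOTCHWT_TCFKO and 29.5 ± 7.49 CPM in NOTCHWT_TCFWT libraries (SD, n = 3 each), and the 4 groups overlapped. H2-DMb2, the other beta chain, had 4.1, 11.3 and 9.51 CPM in NICD_TCFKO, 3.69, 4.19 and 4.38 CPM in NICD_TCFWT, 3.22, 4.12 and 4.27 CPM in NOTCHWT_TCFKO, and 6.78, 5.85 and 6.35 CPM in NOTCHWT_TCFWT libraries. As for the chains, NICD_TCFKO replicate 1 was the low library of its group, here among the libraries of the low groups.

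H2-Oa and H2-Ob encode the chains of H2-O, the inhibitor of H2-DM. H2-Oa had 19.5, 16.1 and 17.5 CPM in NICD_TCFKO, 16.5, 17.5 and 12.9 CPM in NICD_TCFWT, 11.2, 10.6 and 16.2 CPM in NOTCHWT_TCFKO, and 22.3, 18.6 and 20.2 CPM in NOTCHWT_TCFWT libraries. Its NOTCHWT_TCFKO and NICD_TCFWT libraries lay below all 3 NOTCHWT_TCFWT libraries. H2-Ob averaged 86.3 ± 11.3 CPM in NICD_TCFKO, 88.2 ± 13.1 CPM in NICD_TCFWT, 79.3 ± 28.6 CPM in NOTCHWT_TCFKO and 87.5 ± 17.9 CPM in NOTCHWT_TCFWT libraries (SD, n = 3 each), with overlap of all 4 groups.

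**Figure D2:**
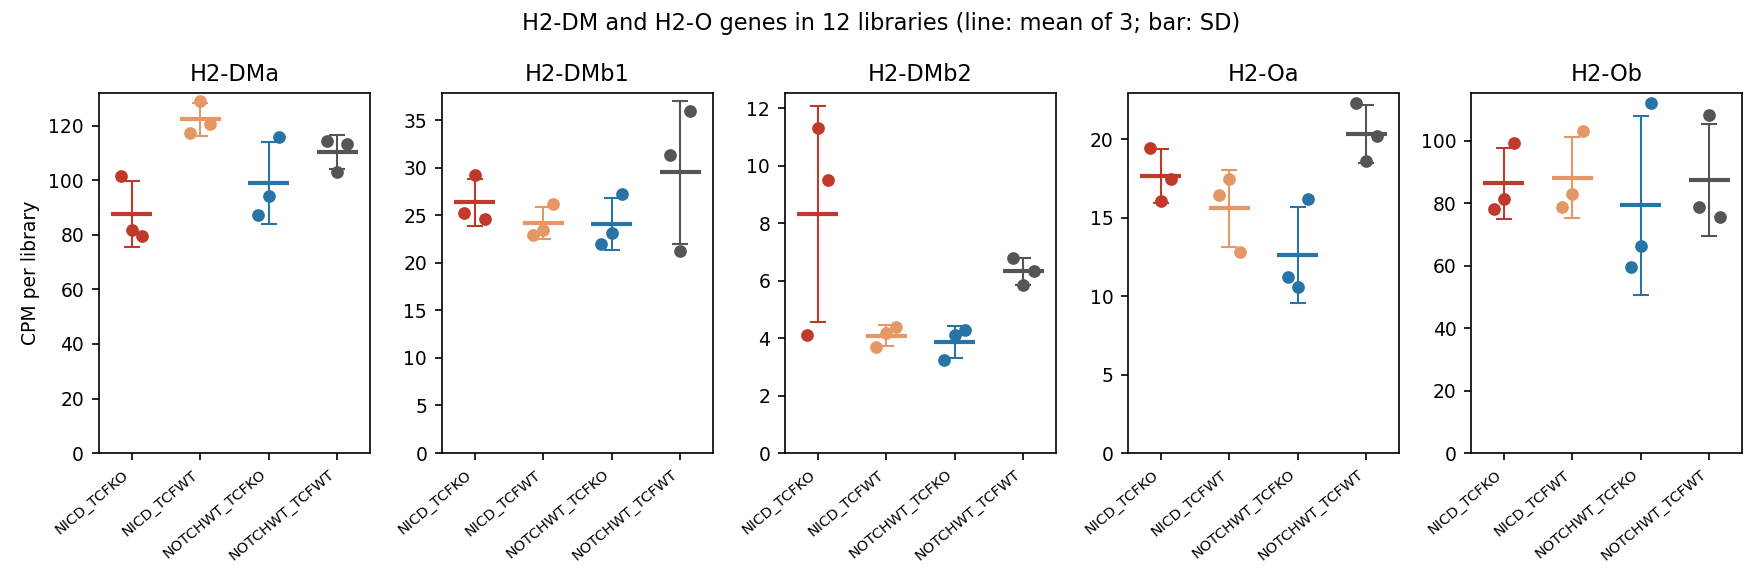
CPM per library (linear axes from 0) of H2-DMa, H2-DMb1, H2-DMb2, H2-Oa and H2-Ob in the 4 labelled groups; points are libraries, lines are means of 3 and bars are SD. H2-Ob averages between 79.3 and 88.2 CPM in the 4 groups, while H2-DMb2 averages 8.31 CPM in NICD_TCFKO, 4.09 CPM in NICD_TCFWT, 3.87 CPM in NOTCHWT_TCFKO and 6.33 CPM in NOTCHWT_TCFWT libraries.

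Labelled N1IC with Tcf7 labelled intact went with less RNA of the chains, the invariant chain and the transactivator. Against NOTCHWT_TCFWT libraries, 5 of the 10 members fell in NICD_TCFWT libraries and 0 rose, where 9.75% of all genes tested fell and 10.6% rose (edgeR quasi-likelihood test, adjusted p under 0.05 by Benjamini-Hochberg). Cd74 was 10.2-fold lower, with 27.0 ± 11 CPM in NICD_TCFWT and 276 ± 123 CPM in NOTCHWT_TCFWT libraries (log2 fold change -3.35 ± 0.62 SE, adjusted p = 0.00565 by edgeR). H2-Aa was 8.28-fold lower (-3.05 ± 0.52, edgeR adjusted p = 0.00365), H2-Eb1 8.11-fold (-3.02 ± 0.55, edgeR adjusted p = 0.0051) and Ciita 7.07-fold (-2.82 ± 0.59, edgeR adjusted p = 0.00882). H2-Ab1 had the smallest change of the 5, 4.17-fold (-2.06 ± 0.38, edgeR adjusted p = 0.00545). The median log2 fold change was -1.34 over the 10 members and 0.00 over all genes tested. H2-DMa (0.15 ± 0.12), H2-DMb1 (-0.29 ± 0.17), H2-DMb2 (-0.63 ± 0.31), H2-Oa (-0.38 ± 0.18) and H2-Ob (0.01 ± 0.23) did not pass the test. In bulk RNA, fewer cells with class II and less class II RNA per cell cannot be told apart, here and in the comparisons that follow.

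Labelled Tcf7 deletion without N1IC went with lower RNA of the 3 chains and the transactivator. Of the 10 members 5 fell in NOTCHWT_TCFKO against NOTCHWT_TCFWT libraries and 0 rose, where 10.5% of all genes tested fell and 10.8% rose. H2-Eb1 averaged 23.1 ± 7.12 CPM in NOTCHWT_TCFKO and 126 ± 68.0 CPM in NOTCHWT_TCFWT libraries, 5.46-fold lower (-2.45 ± 0.54, edgeR adjusted p = 0.011). Ciita was 4.98-fold lower (-2.32 ± 0.57, edgeR adjusted p = 0.0178), H2-Aa 4.42-fold (-2.14 ± 0.50, edgeR adjusted p = 0.0144) and H2-Ab1 3.38-fold (-1.76 ± 0.38, edgeR adjusted p = 0.00999). H2-Oa was the fifth, 1.61-fold lower (-0.69 ± 0.18, edgeR adjusted p = 0.0189). Cd74 averaged 81.8 ± 12.7 CPM in NOTCHWT_TCFKO and 276 ± 123 CPM in NOTCHWT_TCFWT libraries with no overlap, but did not pass (-1.75 ± 0.58, edgeR adjusted p = 0.0602). The members' median log2 fold change was -1.23, against 0.00 for all genes. Without NOTCHWT_TCFKO replicate 1 or replicate 2 only H2-Ab1 and H2-Eb1 passed of the 10, and without NOTCHWT_TCFWT replicate 2 the count of members lower was 7, with Cd74 among them. H2-Oa missed the threshold without NOTCHWT_TCFWT replicate 1 and Ciita without NOTCHWT_TCFWT replicate 3.

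With N1IC labelled in both groups, labelled Tcf7 deletion went the other way. In NICD_TCFKO against NICD_TCFWT libraries 5 members rose and 1 fell, where 7.25% of all genes tested rose and 5.15% fell. Cd74 averaged 245 ± 166 CPM in NICD_TCFKO and 27.0 ± 11 CPM in NICD_TCFWT libraries, 9.08-fold higher (3.18 ± 0.61, edgeR adjusted p = 0.0116). Ciita was 7.62-fold higher (2.93 ± 0.59, edgeR adjusted p = 0.0123), H2-Aa 5.98-fold (2.58 ± 0.51, edgeR adjusted p = 0.0122), H2-Eb1 5.51-fold (2.46 ± 0.54, edgeR adjusted p = 0.019) and H2-Ab1 3.11-fold (1.64 ± 0.38, edgeR adjusted p = 0.0228). H2-DMa moved against the chains: it averaged 87.7 ± 12.1 CPM in NICD_TCFKO and 122 ± 6.09 CPM in NICD_TCFWT libraries, 1.4-fold lower (-0.48 ± 0.12, edgeR adjusted p = 0.024). Brd2, which shares exonic bases with it, had 0.07 ± 0.06 in this comparison. Dexi, which overlaps Ciita, had log2 fold changes from -0.13 to 0.18 over the 6 pairwise comparisons and passed in none. H2-DMb2 missed the threshold (1.02 ± 0.31, edgeR adjusted p = 0.0524) and passed when the replicate numbers of the libraries labelled N1IC were a block (0.91 ± 0.25, edgeR adjusted p = 0.049). The median log2 fold change was 1.33 over the members and 0.00 over all genes. Without NICD_TCFWT replicate 1 or replicate 2 only Cd74 passed as higher, without NICD_TCFKO replicate 2 or NICD_TCFWT replicate 3 only H2-Aa, Cd74 and Ciita did, and H2-DMa missed the threshold without NICD_TCFKO replicate 2 or 3 or NICD_TCFWT replicate 2 or 3.

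**Figure D3:**
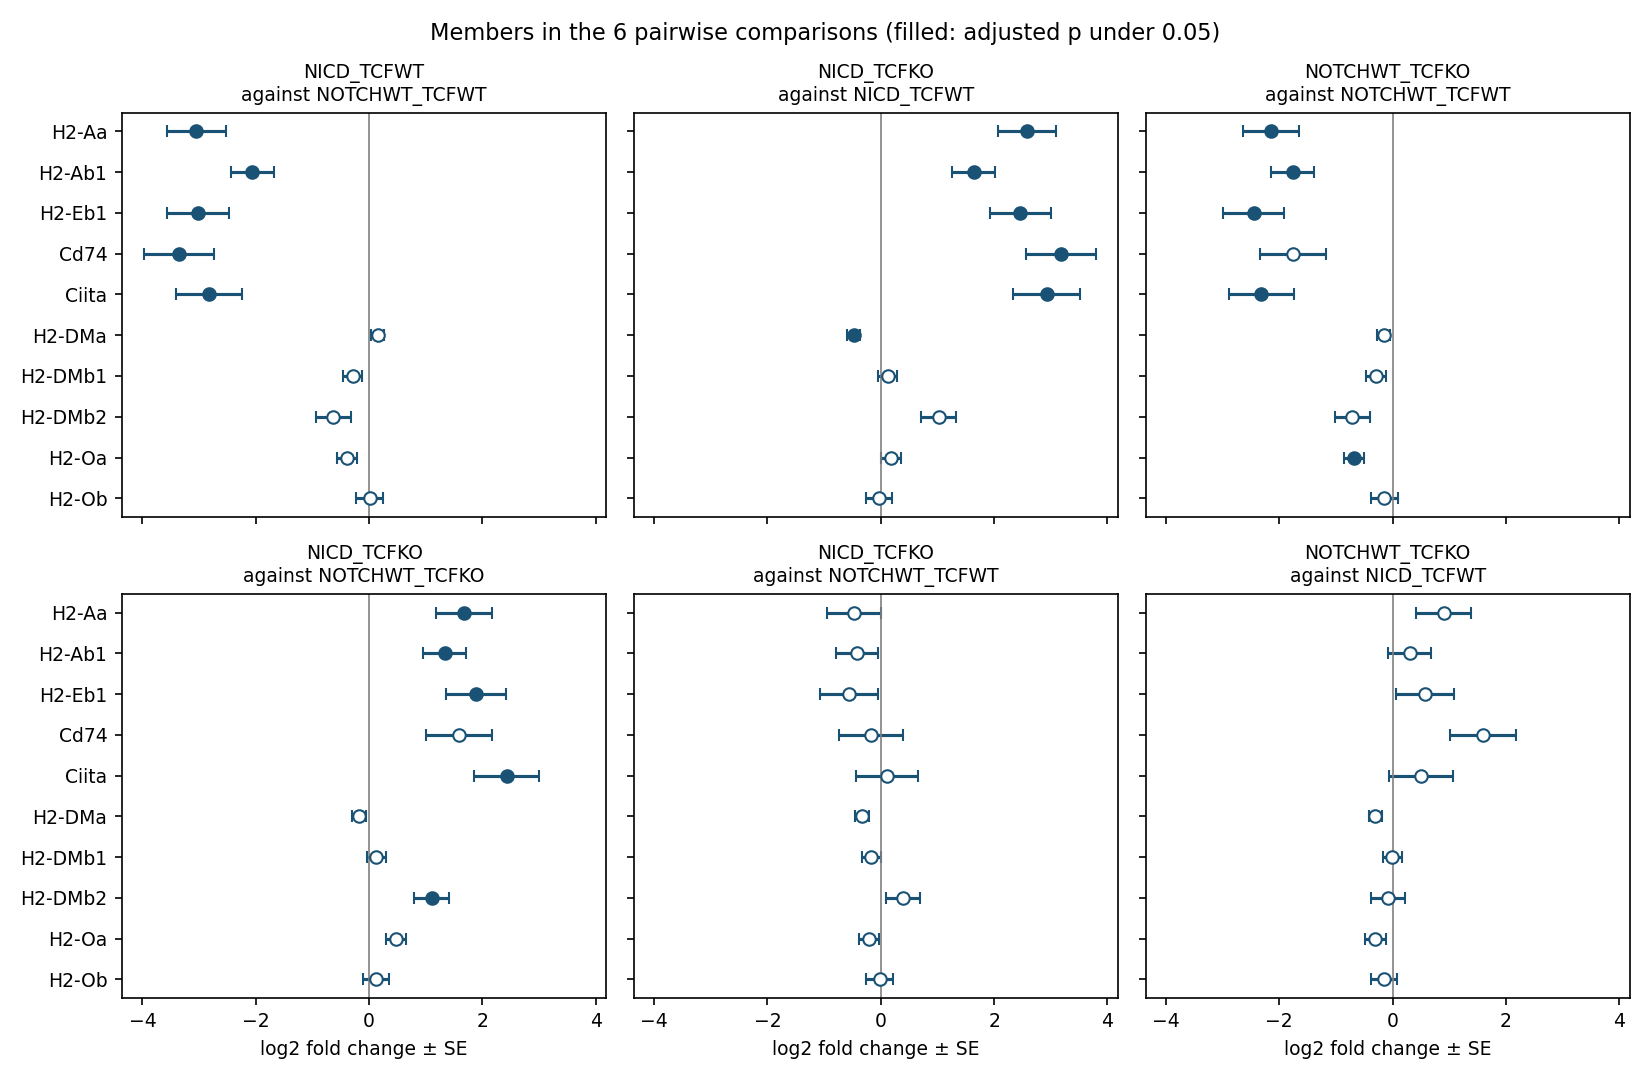
Log2 fold change (horizontal axis, bars are SE) of each of the 10 members in the 6 pairwise comparisons of the labelled groups; filled points have an edgeR adjusted p under 0.05. H2-Aa has -3.05 for NICD_TCFWT against NOTCHWT_TCFWT, 2.58 for NICD_TCFKO against NICD_TCFWT and -2.14 for NOTCHWT_TCFKO against NOTCHWT_TCFWT, while the H2-DM and H2-O genes lie closer to 0.

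These comparisons share libraries, so the difference between them was tested as an interaction: the change with labelled Tcf7 deletion among libraries labelled N1IC minus that among libraries labelled without it. It was positive and passed for 7 of the 10 members and negative for 0, where 13.8% of all genes tested were positive and 13.5% negative. Ciita had the largest value (5.25 ± 0.82, edgeR adjusted p = 0.00138), followed by Cd74 (4.94 ± 0.84, edgeR adjusted p = 0.00255), H2-Eb1 (4.91 ± 0.76, edgeR adjusted p = 0.00149), H2-Aa (4.73 ± 0.71, edgeR adjusted p = 0.00129) and H2-Ab1 (3.39 ± 0.54, edgeR adjusted p = 0.00156). H2-DMb2 (1.73 ± 0.43, edgeR adjusted p = 0.013) and H2-Oa (0.87 ± 0.25, edgeR adjusted p = 0.025) passed with smaller values. H2-Oa missed the threshold without NICD_TCFWT replicate 3, NOTCHWT_TCFKO replicate 1 or NOTCHWT_TCFWT replicate 1, H2-DMb1 (0.42 ± 0.24) passed without NOTCHWT_TCFWT replicate 2, and H2-DMa (-0.33 ± 0.17) passed as negative without NICD_TCFKO replicate 1.

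Between the groups labelled Tcf7-deleted, class II was higher with N1IC, less firmly than in the comparisons above. In NICD_TCFKO against NOTCHWT_TCFKO libraries 5 members rose and 0 fell, where 10.3% of all genes tested rose and 8.06% fell. Ciita was 5.38-fold higher (2.43 ± 0.58, edgeR adjusted p = 0.0184), H2-Eb1 3.71-fold (1.89 ± 0.53, edgeR adjusted p = 0.0357), H2-Aa 3.20-fold (1.68 ± 0.49, edgeR adjusted p = 0.043), H2-Ab1 2.52-fold (1.34 ± 0.38, edgeR adjusted p = 0.0364) and H2-DMb2 2.15-fold (1.10 ± 0.31, edgeR adjusted p = 0.0317). Cd74 (1.58 ± 0.58, edgeR adjusted p = 0.0882) did not pass. None of the 5 passed when only these 6 libraries were fitted, nor without NICD_TCFKO replicate 2, NOTCHWT_TCFKO replicate 1 or NOTCHWT_TCFKO replicate 2, and Ciita alone passed without NICD_TCFKO replicate 3. With a replicate block, over all libraries or over those labelled N1IC, 2 members passed, Ciita and H2-DMb2. H2-Aa also missed the threshold without NOTCHWT_TCFKO replicate 3.

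No member passed between the 2 high groups or between the 2 low groups. In NICD_TCFKO against NOTCHWT_TCFWT libraries 0 members passed in either direction, where 4.01% of all genes tested rose and 2.3% fell (edgeR). By unadjusted p under 0.05, 0 members were higher and 1 was lower, and DESeq2 and limma called 0 each way after adjustment. The log2 fold changes were -0.47 ± 0.48 for H2-Aa, -0.42 ± 0.37 for H2-Ab1, -0.56 ± 0.51 for H2-Eb1, -0.17 ± 0.56 for Cd74 and 0.11 ± 0.54 for Ciita (SE), and errors of this size leave room for differences of about 1 on this scale. Without NICD_TCFKO replicate 1, H2-DMb2 (0.73) passed as higher and H2-DMa (-0.44) as lower. In NOTCHWT_TCFKO against NICD_TCFWT libraries 0 members passed as well, where 1.34% of all genes rose and 1.54% fell (edgeR). By unadjusted p under 0.05, 1 was higher and 1 was lower, and DESeq2 and limma again called 0 each way. Cd74 had the largest value there (1.60 ± 0.58, edgeR adjusted p = 0.159), with libraries that did not overlap, ahead of H2-Aa (0.91 ± 0.49, edgeR adjusted p = 0.307). H2-DMa passed as lower in that comparison without NOTCHWT_TCFKO replicate 3.

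Ratios between members varied. The ratio of H2-Eb1 to H2-Aa CPM stayed between 0.505 and 0.696 over the 12 libraries, in which H2-Aa itself varied 15.6-fold. The ratio of Cd74 to H2-Aa averaged 1.63 ± 0.320 in NICD_TCFKO, 1.12 ± 0.196 in NICD_TCFWT, 1.91 ± 0.333 in NOTCHWT_TCFKO and 1.42 ± 0.119 in NOTCHWT_TCFWT libraries (SD, n = 3 each). H2-Ab1 stood at 1.75 ± 0.475 times H2-Aa in NICD_TCFWT libraries, with 1.31 to 2.25 in single libraries, and at 0.795 to 1.17 in the libraries of the other groups. H2-DMa ranged from 0.371 to 7.49 times H2-Aa. These ratios were not tested.

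Ciita followed the chains across libraries more closely than nearly all other genes. Its log2 CPM had a Pearson r of 0.978 with the mean of H2-Aa, H2-Ab1, H2-Eb1 and Cd74 over the 12 libraries, behind only H2-Aa, H2-Eb1 and H2-Ab1 themselves among the genes tested. After each group's mean was removed r was 0.985, so libraries above their group's mean for the chains tended to be above it for Ciita too. With the group means removed, r was 0.809 for H2-DMb1, 0.734 for H2-DMb2, 0.0172 for H2-Ob, -0.0062 for H2-Oa and -0.0862 for H2-DMa. Over the 12 libraries with the group means kept, r was 0.81 for H2-DMb2, 0.713 for H2-DMb1, 0.547 for H2-Oa, 0.0656 for H2-Ob and -0.391 for H2-DMa. The points share libraries and group differences, and the values are a description. Outside the members, the closest of the genes with a mean of at least 5 CPM were Rtf1 (0.950), Ahr (0.948), the aryl hydrocarbon receptor, Phf11c (0.942), Ovca2 (0.936), Pde3b (0.935), a phosphodiesterase, Ston2 (0.933), Fam78a (0.932), Zbtb1 (0.932), Dtx3l (0.931) and Filip1l (0.929). Ahr averaged 39.2 ± 15.5 CPM in NICD_TCFKO, 7.59 ± 0.576 CPM in NICD_TCFWT, 8.36 ± 0.683 CPM in NOTCHWT_TCFKO and 38.5 ± 14.0 CPM in NOTCHWT_TCFWT libraries, the same high and low groups as Ciita. A high r does not measure the size of a change. Rtf1 averaged 153 ± 12.4, 125 ± 2.44, 130 ± 4.80 and 163 ± 5.60 CPM in these groups, in the same order. With the group means removed, r was 0.762 for Rtf1 and 0.905 for Ahr.

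At most 1 of the factors that Ciita docks on passed in each pairwise comparison by edgeR, and DESeq2 called more in some. Of 7 genes for RFX, CREB and NF-Y subunits, 0 rose and 1 fell in NICD_TCFWT against NOTCHWT_TCFWT libraries: Creb1, with 155 ± 4.34 CPM in NICD_TCFWT and 197 ± 16.3 CPM in NOTCHWT_TCFWT libraries (-0.35 ± 0.08, edgeR adjusted p = 0.0146). By unadjusted p under 0.05, 0 of the 7 were higher and 5 lower there, and DESeq2 called 3 lower and limma 1. In NOTCHWT_TCFKO against NOTCHWT_TCFWT libraries 0 of the 7 passed in either direction by edgeR, 0 were higher and 3 lower by unadjusted p under 0.05, DESeq2 called 1 lower and limma 0. In NICD_TCFKO against NICD_TCFWT libraries Creb1 alone rose (0.34 ± 0.08, edgeR adjusted p = 0.0241). There 2 of the 7 were higher and 0 lower by unadjusted p under 0.05, and DESeq2 called 2 higher and limma 1. In NICD_TCFKO against NOTCHWT_TCFWT libraries Rfx5, which binds the X box, alone fell (-0.39 ± 0.10, edgeR adjusted p = 0.0374). A list of 7 genes is too short for 1 call to be told from the shares of all genes given above, which are also the background for the lists that follow.

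In the interferon gamma route to Ciita, Irf1, a transcription factor at the Ciita promoter, had 164, 179 and 165 CPM in NICD_TCFKO, 116, 114 and 104 CPM in NICD_TCFWT, 96.7, 79.9 and 134 CPM in NOTCHWT_TCFKO, and 267, 205 and 280.0 CPM in NOTCHWT_TCFWT libraries. Its NOTCHWT_TCFWT libraries stood above all 9 others, replicate 2 was again the lowest of that group, and the NICD_TCFKO libraries lay above those of the 2 groups where Ciita was low. Irf1 fell in NICD_TCFWT (-1.17 ± 0.17, edgeR adjusted p = 0.00112) and NOTCHWT_TCFKO libraries (-1.27 ± 0.17, edgeR adjusted p = 0.000575) against NOTCHWT_TCFWT, and rose in NICD_TCFKO against NICD_TCFWT libraries (0.61 ± 0.17, edgeR adjusted p = 0.0412). Jak2, a kinase of the receptor, fell in NICD_TCFWT against NOTCHWT_TCFWT libraries (-0.57 ± 0.08, edgeR adjusted p = 0.000946). Ifngr2, a subunit of the interferon gamma receptor, ran the other way, with 20.9 ± 1.68 CPM in NICD_TCFKO, 30.7 ± 1.83 CPM in NICD_TCFWT, 30.2 ± 1.15 CPM in NOTCHWT_TCFKO and 13.2 ± 0.279 CPM in NOTCHWT_TCFWT libraries. Of 8 genes listed for the route 7 were tested, since Ifng stayed at or below 0.239 CPM. Against NOTCHWT_TCFWT, 1 rose and 3 fell in NICD_TCFWT and 2 rose and 3 fell in NOTCHWT_TCFKO libraries. Type I interferon response genes, 12 in all, summed to 388 to 415 CPM in NICD_TCFKO, 331 to 431 CPM in NICD_TCFWT, 290.2 to 329 CPM in NOTCHWT_TCFKO and 376 to 524 CPM in NOTCHWT_TCFWT libraries. Of these 12 genes, 2 rose and 1 fell in NICD_TCFWT, and 1 rose and 6 fell in NOTCHWT_TCFKO, against NOTCHWT_TCFWT libraries. Of all genes tested 10.6% rose and 9.75% fell in the NICD_TCFWT comparison, and 10.8% rose and 10.5% fell in the NOTCHWT_TCFKO comparison.

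**Figure D4:**
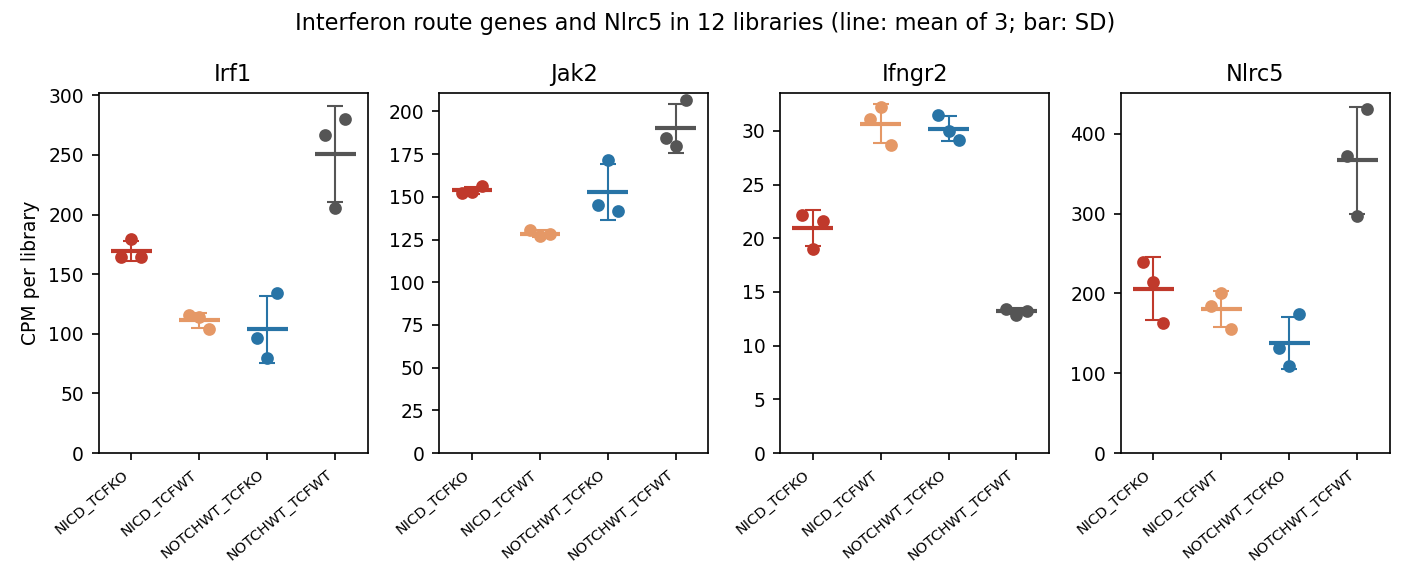
CPM per library (linear axes from 0) of Irf1, Jak2, Ifngr2 and Nlrc5 in the 4 labelled groups; points are libraries, lines are means of 3 and bars are SD. Irf1 averages 169.5 CPM in NICD_TCFKO, 111 CPM in NICD_TCFWT, 104 CPM in NOTCHWT_TCFKO and 251 CPM in NOTCHWT_TCFWT libraries, and Ifngr2 is lowest in NOTCHWT_TCFWT libraries.

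Class I presentation genes, which serve CD8+ T cells, had smaller log2 fold changes than the class II chains in the comparisons given here. Of 14 listed, 6 fell and 0 rose in NICD_TCFWT against NOTCHWT_TCFWT libraries, 9 fell and 0 rose in NOTCHWT_TCFKO against NOTCHWT_TCFWT libraries, and 0 passed in either direction in NICD_TCFKO against NICD_TCFWT libraries, where 5 class II members had risen. In NICD_TCFKO against NICD_TCFWT libraries edgeR gave 1 of the 14 higher and 0 lower by unadjusted p under 0.05, and DESeq2 and limma called 0 each way. In NICD_TCFKO against NOTCHWT_TCFKO libraries 5 of the 14 rose and 0 fell, and 7 were positive and 1 negative in the interaction. Nlrc5, the class I counterpart of Ciita, fell in NICD_TCFWT (-1.03 ± 0.20, edgeR adjusted p = 0.006) and in NOTCHWT_TCFKO (-1.41 ± 0.21, edgeR adjusted p = 0.00101) against NOTCHWT_TCFWT libraries. It averaged 206 ± 39.5 CPM in NICD_TCFKO and 180 ± 22.8 CPM in NICD_TCFWT libraries, with overlap, where Ciita differed 7.62-fold. H2-Eb2, a class II beta chain gene beside H2-Eb1, was scarce and rose in NICD_TCFKO (2.12 ± 0.277 CPM) against NICD_TCFWT libraries (0.756 ± 0.168 CPM; 1.49 ± 0.43, edgeR adjusted p = 0.0451). It did not pass in NICD_TCFWT against NOTCHWT_TCFWT libraries (-0.11 ± 0.43, edgeR adjusted p = 0.889).

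Several proteases that prepare class II for loading were higher where the chains were lower. Of 10 genes for endosomal proteases, their inhibitor and class II turnover, 8 rose and 0 fell in NOTCHWT_TCFKO against NOTCHWT_TCFWT libraries, and 4 rose and 1 fell in NICD_TCFWT against NOTCHWT_TCFWT libraries. The 4 were the proteases Ctsl, Ctsb and Ctsh and the inhibitor Cst3, and the one that fell was the protease Lgmn. In NICD_TCFKO against NICD_TCFWT libraries Lgmn and March1, a ubiquitin ligase of class II turnover, rose with the chains and Ctsl fell. Ctsb, the protease cathepsin B, averaged 349 ± 79.5 CPM in NOTCHWT_TCFKO and 113 ± 5.20 CPM in NOTCHWT_TCFWT libraries (1.63 ± 0.14, edgeR adjusted p = 3.91e-05). Of 7 costimulation genes, 1 rose and 2 fell in NICD_TCFWT against NOTCHWT_TCFWT libraries. Pdcd1lg2 (-2.85 ± 0.43, edgeR adjusted p = 0.00149) and Cd274 (-1.46 ± 0.25, edgeR adjusted p = 0.00277), which encode the ligands PD-L2 and PD-L1, fell. Cd86, the CD28 ligand, rose there (1.47 ± 0.28, edgeR adjusted p = 0.00472). In NOTCHWT_TCFKO against NOTCHWT_TCFWT libraries 1 of the 7 rose and 3 fell. In NICD_TCFKO against NICD_TCFWT libraries 1 rose, Icosl, and 0 fell, so that Pdcd1lg2 and Cd274 did not pass. Icosl and Pdcd1lg2 rose in NICD_TCFKO against NOTCHWT_TCFKO libraries. Between the groups with high class II, Pdcd1lg2 and Cd274 fell and Cd86 and Icosl rose in NICD_TCFKO against NOTCHWT_TCFWT libraries.

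Dendritic cells are a main carrier of class II, and their markers were divided. The summed CPM of the 10 members ran from 504 to 1225 in NICD_TCFKO, from 344 to 397 in NICD_TCFWT, from 357 to 529 in NOTCHWT_TCFKO and from 636 to 1308 in NOTCHWT_TCFWT libraries. The sum of 15 dendritic cell markers ran from 680 to 1034 CPM in NICD_TCFKO, from 956 to 1020 in NICD_TCFWT, from 770 to 1069 in NOTCHWT_TCFKO and from 431 to 477 in NOTCHWT_TCFWT libraries. It was lowest in NOTCHWT_TCFWT libraries, where class II was high, and Batf3, Cd209a and Siglech were at 0 in all 3 of them. Of the 14 dendritic cell markers tested, 3 rose and 1 fell in NICD_TCFWT and 5 rose and 2 fell in NOTCHWT_TCFKO against NOTCHWT_TCFWT libraries, 2 rose and 2 fell in NICD_TCFKO against NICD_TCFWT, and 3 rose and 2 fell in NICD_TCFKO against NOTCHWT_TCFKO libraries. Dpp4, which encodes the peptidase CD26, went with the chains: it averaged 379 ± 129 CPM in NICD_TCFKO, 73.7 ± 4.80 CPM in NICD_TCFWT, 72.4 ± 8.95 CPM in NOTCHWT_TCFKO and 159 ± 6.06 CPM in NOTCHWT_TCFWT libraries (SD, n = 3 each). Itgax, which encodes CD11c and is shared by dendritic and some lymphoid cells, rose in NICD_TCFKO against NICD_TCFWT libraries (2.70 ± 0.33, edgeR adjusted p = 0.00101), and Ly75, an endocytic receptor, fell in NOTCHWT_TCFKO against NOTCHWT_TCFWT libraries (-0.44 ± 0.11, edgeR adjusted p = 0.0148). Dpp4, Itgax and Ly75 passed as positive in the interaction, and Flt3, Clec10a and Irf8 as negative. Flt3, which progenitors express as well, made up much of the sums in NICD_TCFWT and NOTCHWT_TCFKO libraries and a smaller part in the others. It averaged 119 ± 17.2 CPM in NICD_TCFKO, 548 ± 28.8 CPM in NICD_TCFWT, 445 ± 192 CPM in NOTCHWT_TCFKO and 54.9 ± 16.8 CPM in NOTCHWT_TCFWT libraries.

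The summed macrophage markers were lower in both groups with high class II than in the groups with low class II. The summed B cell markers overlapped between high and low groups, and single B cell genes went either way. The sum of 14 B cell markers ran from 136 to 630 CPM in NICD_TCFKO, from 219 to 450 in NICD_TCFWT, from 367 to 2277 in NOTCHWT_TCFKO and from 175 to 328 in NOTCHWT_TCFWT libraries. Pax5, the defining B cell factor, was at 0 in all 3 NOTCHWT_TCFWT libraries and reached 0.025 CPM at most in NICD_TCFKO. The high end belonged to NOTCHWT_TCFKO replicate 2, where Igkc stood at 1825 CPM. The 10 members summed to 379.6 CPM in that library, against 357 and 529 CPM in replicates 1 and 3. Of the 13 B cell markers tested, 1 rose and 1 fell in NICD_TCFWT and 4 rose and 0 fell in NOTCHWT_TCFKO against NOTCHWT_TCFWT libraries, 2 rose and 0 fell in NICD_TCFKO against NICD_TCFWT, and 1 rose and 2 fell in NICD_TCFKO against NOTCHWT_TCFKO libraries. Blk, a kinase of the B cell receptor pathway, averaged 23.1 ± 12.3 CPM in NICD_TCFKO, 0.514 ± 0.488 CPM in NICD_TCFWT, 1.70 ± 1.38 CPM in NOTCHWT_TCFKO and 10.7 ± 0.386 CPM in NOTCHWT_TCFWT libraries (SD, n = 3 each), and had a positive interaction (8.14 ± 1.33, edgeR adjusted p = 0.00181). Cd22, a B cell surface lectin, rose in NICD_TCFKO against NICD_TCFWT libraries (5.48 ± 1.15, edgeR adjusted p = 0.0142). It also rose in NICD_TCFKO against NOTCHWT_TCFWT libraries, where class II was high in both groups. The 4 that rose in NOTCHWT_TCFKO against NOTCHWT_TCFWT libraries, where the chains fell, were Ebf1, Igll1, Bank1 and Cd79a. Ebf1 and Igll1 passed as negative in the interaction. The sum of 14 monocyte and macrophage markers ran from 229 to 469 CPM in NICD_TCFKO, from 617 to 990 in NICD_TCFWT, from 477 to 1538 in NOTCHWT_TCFKO and from 139 to 241 in NOTCHWT_TCFWT libraries. Of these 14 genes, 13 rose and 0 fell in NOTCHWT_TCFKO against NOTCHWT_TCFWT libraries. In NICD_TCFWT against NOTCHWT_TCFWT libraries 8 rose and 0 fell. The chains fell in both comparisons. In NICD_TCFKO against NICD_TCFWT libraries, where the chains rose, 0 of the 14 rose and 1 fell, Mrc1. By unadjusted p under 0.05, 0 were higher and 4 lower there. Against NOTCHWT_TCFKO libraries 0 rose and 10 fell in NICD_TCFKO. Between the groups with high class II, 4 rose and 0 fell in NICD_TCFKO against NOTCHWT_TCFWT libraries.

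T cell and innate lymphoid marker sums were high in the same 2 groups as class II. The sum of 12 T cell markers ran from 782 to 2333 CPM in NICD_TCFKO, from 31.5 to 53.1 CPM in NICD_TCFWT, from 27.2 to 48.5 CPM in NOTCHWT_TCFKO and from 332 to 363 CPM in NOTCHWT_TCFWT libraries. Of these genes 11 rose and 0 fell in NICD_TCFKO against NICD_TCFWT libraries, while 1 rose and 3 fell in NICD_TCFWT, and 2 rose and 3 fell in NOTCHWT_TCFKO, against NOTCHWT_TCFWT libraries. In NOTCHWT_TCFWT libraries Lck, a kinase of the T cell receptor pathway, made up much of the sum at 203 ± 18.2 CPM, and Cd3e, a subunit of that receptor, reached 0.163 CPM at most. Ptcra, the pre-T alpha chain, was at 0 in all NICD_TCFWT and NOTCHWT_TCFKO libraries. The sum of 11 innate lymphoid markers ran from 338 to 422 CPM in NICD_TCFKO, from 68.5 to 94.3 CPM in NICD_TCFWT, from 71.7 to 103 CPM in NOTCHWT_TCFKO and from 636 to 1413 CPM in NOTCHWT_TCFWT libraries. Of these 11 genes 4 rose and 0 fell in NICD_TCFKO against NICD_TCFWT libraries, and 4 rose and 1 fell, Gzmb, both in NICD_TCFWT and in NOTCHWT_TCFKO against NOTCHWT_TCFWT libraries.

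Within the high groups some of these sums varied with class II and others did not. In NICD_TCFKO the T cell sum was 782, 2333 and 1625 CPM in replicates 1, 2 and 3, the order of Cd74 in that group, and Il2ra, the marker with the highest level, had 395, 1265 and 745 CPM. Itgax had 62.6, 142 and 134 CPM in these libraries, and the dendritic cell factor Batf3 had 0.125, 3.51 and 1.79 CPM. The innate lymphoid sum was 381, 422 and 338 CPM and the B cell sum 136, 257 and 630 CPM there, neither in the order of Cd74. Among NOTCHWT_TCFWT libraries the T cell sum had no such spread. The innate lymphoid sum was 1176, 636 and 1413 CPM in replicates 1, 2 and 3, the order of H2-Aa, and most of it was Gzmb, a cytotoxic granule protease. The macrophage sum was 191, 241 and 139 CPM there, the reverse order. Xist, the RNA of the inactive X chromosome, was near 0 in NICD_TCFKO replicate 1 at 0.5 CPM, against 3521 and 3169 CPM in replicates 2 and 3. The part of lymphoid cells, and of sex, in the class II levels was not tested beyond a fit with Xist as a covariate. In it H2-Ab1 of NICD_TCFKO against NICD_TCFWT (1.58, edgeR adjusted p = 0.052) and the interaction of H2-DMb2 (1.36, edgeR adjusted p = 0.055) missed the threshold. The same fit gave 3 members higher in NICD_TCFKO against NOTCHWT_TCFKO libraries, where the main fit gave 5. It also gave 1 member lower, H2-DMa, in NICD_TCFKO against NOTCHWT_TCFWT libraries.

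**Figure D5:**
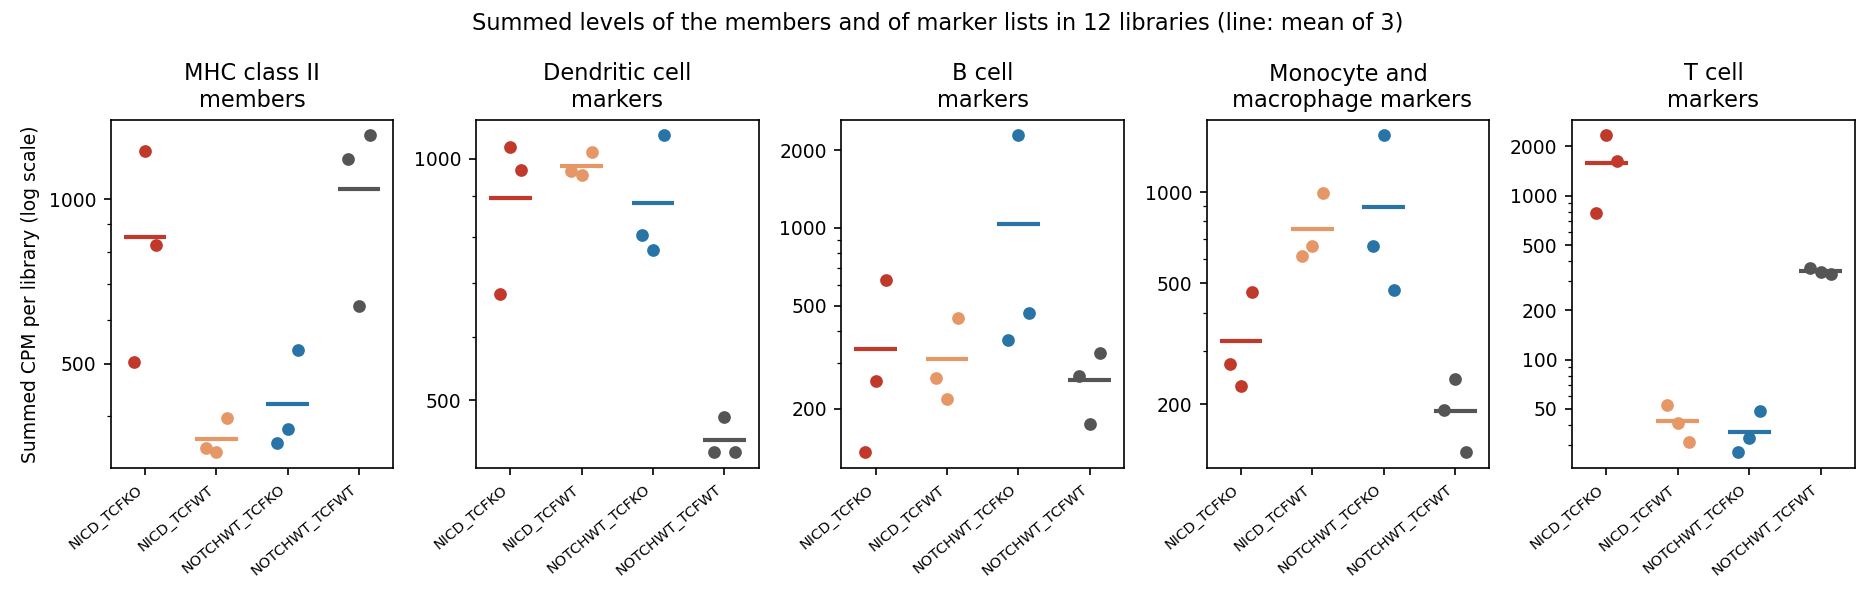
Summed CPM per library (log axis) of the 10 members and of 4 marker lists in the 4 labelled groups; points are libraries and lines are means of 3. NOTCHWT_TCFWT libraries hold 636 to 1308 CPM of the members and the lowest sums of dendritic cell markers (431 to 477 CPM), while T cell markers run from 782 to 2333 CPM in NICD_TCFKO and from 332 to 363 CPM in NOTCHWT_TCFWT libraries, above all libraries of the other 2 groups.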

How the data were processed

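RNA sequencing counts of 12 LSK libraries were used. The submitters' processing notes name the build mm10 and, with no role or order, the tools featureCounts 1.4.4, HISAT2, limma, edgeR 3.28.0, cutadapt 1.9.1 and bcl2fastq 2.17. The authors deposited raw counts of 39017 Ensembl genes, with the same values in each sample's own file and the series table, and a table of log2 values for 15759 genes, which equals log2 of CPM after 0.5 was added to each count.

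Symbols came from GENCODE M21 and matched 37607 genes. Counts were filtered by filterByExpr, scaled by TMM and fitted with 1 mean per group over the 12 libraries in edgeR 4.0.16 (R 4.3.3), with the two-sided quasi-likelihood F test and Benjamini-Hochberg adjustment over 16024 genes; SE is the log2 fold change over the square root of F. CPM, computed here from the deposited counts, uses the TMM-scaled library size, and levels per kilobase use the merged exons. The test was checked on simulated counts. Deviations of log2 CPM from the group means correlated between same-numbered NICD_TCFKO and NICD_TCFWT libraries in all 3 pairs (lowest r 0.1, highest 0.451). The pairing of these groups was thus taken from the data and not from the labels, and it is uncertain. Differently numbered libraries of these groups had r from -0.441 to 0.253. NICD_TCFKO replicate 3 and NOTCHWT_TCFKO replicate 2 reached 0.471. Among same-numbered libraries of the other pairs of groups, 0 to 2 of 3 pairs were over 0.1. Library totals of 30453271 to 43790674 counts set the counting error, and the fewest counts of a member summed over a group were 453. Alternatives were RLE size factors, no filter, 1 CPM in 3 libraries, a replicate block over all libraries or over those labelled N1IC, an Xist covariate (log2 of CPM plus 0.1), a fit of the compared groups alone, DESeq2 1.42.0, the deposited log2 values in limma 3.58.1, CPM without TMM, and leaving out each library. Named were all members, Tcf7, Notch1, up to 4 passing genes per list and comparison with the smallest p, defining markers at 0 or highest, and the 10 genes closest in pattern, without predicted genes, Rik clones, pseudogenes, receptor segments and sex-linked genes; Ifng, Brd2, Dexi, BC051537, H2-Ea-ps, Kit, Xist and the markers Itgax, Batf3, Flt3, Igkc, Lck, Cd3e and Gzmb were named in addition after their values were seen where a statement needed them. The members and gene lists were chosen with earlier results of these data known. A gene of the interferon gamma route is not reported here and is left out of that list's counts.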

Additional observations from a re-analysis of the deposited data

Results flagged for a closer look

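For 7 members the change with labelled Tcf7 deletion differed between libraries labelled N1IC (NICD_TCFKO against NICD_TCFWT) and libraries labelled without it (NOTCHWT_TCFKO against NOTCHWT_TCFWT), by the interaction term of the edgeR fit. The log2 differences between the changes were 4.73 for H2-Aa, 3.39 for H2-Ab1, 4.91 for H2-Eb1, 4.94 for Cd74, 5.25 for Ciita, 1.73 for H2-DMb2 and 0.87 for H2-Oa. H2-Aa, H2-Ab1, H2-Eb1 and Ciita passed in both single comparisons with opposite signs, Cd74 and H2-Oa passed in 1 of them, and H2-DMb2 in neither. Tcf7 itself had 10.32 ± 0.97 in the same term and was highest in NICD_TCFKO libraries, which are labelled as its deletion.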

How the results depend on the processing

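No member changed direction past the threshold under any alternative run. Members higher in NICD_TCFKO against NOTCHWT_TCFKO libraries, 5 as reported, numbered 2 with no filter on low counts, 3 with the Xist covariate, 3 with the deposited log2 values in limma and 0 with only the groups compared; the cause was not tested, except that the last fit has fewer samples. The Xist covariate gave 1 member lower (H2-DMa) in NICD_TCFKO against NOTCHWT_TCFWT libraries. Leaving out 1 library gave 5 to 6 members lower in NICD_TCFWT against NOTCHWT_TCFWT, 1 to 6 higher and 0 to 1 lower in NICD_TCFKO against NICD_TCFWT, 2 to 7 lower in NOTCHWT_TCFKO against NOTCHWT_TCFWT, 0 to 6 higher in NICD_TCFKO against NOTCHWT_TCFKO, 0 to 1 higher and 0 to 1 lower in NICD_TCFKO against NOTCHWT_TCFWT, 0 to 1 lower in NOTCHWT_TCFKO against NICD_TCFWT, and 6 to 8 positive and 0 to 1 negative interactions. Cd74 of NOTCHWT_TCFKO against NOTCHWT_TCFWT passed with DESeq2 (adjusted p = 0.015) and with only the groups compared (edgeR adjusted p = 0.035). Over the alternatives other than leaving out a library, 588 of the members' fold changes kept their side of the threshold, 10 passed newly and 22 missed it, and 422, 11 and 47 did so when 1 library was left out. With the replicate block over all libraries, or over those labelled N1IC (chosen after seeing the data), 2 members (Ciita and H2-DMb2) were higher in NICD_TCFKO against NOTCHWT_TCFKO; in the other comparisons the blocks changed 1 call, H2-DMb2 of NICD_TCFKO against NICD_TCFWT, which passed with the second of them. Without TMM, 1 of 40 group means of members moved by 1 SD or more. Ifng and H2-Ea-ps had few or no counts.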
